A study of Homo sapiens with 6 samples.

Results

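The genes described here were 8 transcription factors that specify or pattern the intestinal epithelium, CDX1, CDX2, HNF4A, KLF4, KLF5, SOX9, ATOH1 and HES1. They were chosen by symbol in a table of raw counts per transcript, and the transcripts of each gene were summed. Of the 40173 genes with a symbol in the table, 7 of the 8 factors had rows, with 23 transcripts between them. CDX1 was not analysed here. RNA was taken from HCT116, a human colorectal cancer line of epithelial origin, at passage 15 to 20. The control cells (MOCK, genotype given as wild type) had been infected with the MOCK virus, and the CYGB cells (genotype given as CYGB overexpression) with a lentivirus carrying the coding region of cytoglobin fused to FLAG. Both were kept under puromycin for selection and used as stable lines without further treatment, with 3 libraries described as biological replicates in each group. The promoter that drives the transgene, and whether each line was grown from a single cell, are not given in the sources used here.

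In the gut, CDX1 and CDX2 are caudal-type homeobox factors that set intestinal rather than gastric fate, and HNF4A is a nuclear receptor that drives the genes of absorptive enterocytes. SOX9 marks the stem and progenitor zone of the crypt, KLF5 its dividing cells, and KLF4 the cells that have left the cell cycle. The choice between absorptive and secretory fate runs through Notch: the cleaved receptor joins RBPJ to switch on HES1, and the HES1 protein represses ATOH1, the activator of goblet, Paneth, enteroendocrine and tuft cell fate.

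The promoters of HES1 and ATOH1 carry the letters through which that circuit is usually described, and HNF4A has paired promoters, so the promoters of these 3 genes are shown. The sequences are those of RefSeq on GRCh38.p14, all on the plus strand and written 5′ to 3′, and they cover up to 250 bases before an annotated start. In the HES1 window (chr3:194135898-194136144), capitals mark the RBPJ core TGGGAA, which was searched on both strands.

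HES1: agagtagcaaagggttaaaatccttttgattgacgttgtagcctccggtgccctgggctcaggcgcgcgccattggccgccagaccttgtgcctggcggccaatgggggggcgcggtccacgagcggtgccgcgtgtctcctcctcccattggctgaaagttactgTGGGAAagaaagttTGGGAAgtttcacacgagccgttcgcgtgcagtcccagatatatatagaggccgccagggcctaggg

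The HES1 window held 2 such cores, at bases 84 to 79 and 70 to 65 upstream of the start. At least 1 core was present in 20.9% of 34943 promoters of the same length and at least 2 in 2.89%. In the ATOH1 window (chr4:93828503-93828752), capitals mark the letters that HES proteins are known to bind, the N-box CACNAG and the class C site CACGNG, on either strand.

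ATOH1: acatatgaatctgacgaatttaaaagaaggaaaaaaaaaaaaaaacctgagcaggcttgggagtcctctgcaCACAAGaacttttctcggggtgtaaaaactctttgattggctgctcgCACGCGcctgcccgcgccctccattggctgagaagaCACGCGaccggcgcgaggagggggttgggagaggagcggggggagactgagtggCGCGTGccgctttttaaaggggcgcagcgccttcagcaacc

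The ATOH1 window held 1 N-box and 3 class C sites. Such short letters are common, with at least 1 N-box in 32.1% of all promoters and at least 2 in 6.33%, and at least 1 class C site in 26.6% and at least 2 in 6.24%. The HES1 window held more of both, 3 N-boxes and 4 class C sites, with 2 positions where the letters fit both motifs. HNF4A is read from 2 promoters that lie 45540 bases apart, an upstream promoter known as P2 (chr20:44355449-44355698) and a downstream promoter known as P1 (chr20:44400989-44401238), the latter lying in the first intron of 3 of the 4 transcripts that start upstream. Both are shown, with nothing marked, because the share of HNF4A counts from each promoter is compared further on.

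HNF4A upstream promoter: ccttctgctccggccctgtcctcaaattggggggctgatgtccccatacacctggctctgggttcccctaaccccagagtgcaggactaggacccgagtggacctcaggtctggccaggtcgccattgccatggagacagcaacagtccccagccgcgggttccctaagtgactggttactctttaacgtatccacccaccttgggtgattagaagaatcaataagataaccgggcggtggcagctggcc

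HNF4A downstream promoter: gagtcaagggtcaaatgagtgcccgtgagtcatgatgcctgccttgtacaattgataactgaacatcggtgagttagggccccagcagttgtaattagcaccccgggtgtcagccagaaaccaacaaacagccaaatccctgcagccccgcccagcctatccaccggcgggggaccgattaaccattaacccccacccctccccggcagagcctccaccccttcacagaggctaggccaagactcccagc

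A match of letters is a description of the sequence, and binding was not measured. SOX9 and CDX1 were not found by symbol in the RefSeq promoter table.

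The libraries held between 58138393 and 66035266 counts, of which 18.6 to 19.5% fell on transcripts without a gene and were left out. The transgene separated the groups as labelled, with 10 to 34 CYGB counts in MOCK and 27681 to 34935 in CYGB. Levels below are per length, in transcripts per 1000000 (TPM), computed from the counts and the transcript lengths of GENCODE 29, so that genes can be compared. The epithelial markers EPCAM, CDH1, KRT8, KRT18 and KRT19 summed to 5177 to 5637 TPM in MOCK and 5223 to 5563 in CYGB. Most of this was KRT8 (mean 1919) and KRT19 (mean 2450), and EPCAM was at 183 in CYGB 3 against 359 to 378 in the other libraries. Markers of endothelium summed to at most 1.36 and those of stomach and liver to at most 1.58 in every library. The fibroblast list summed to 17.8 to 19.0 in MOCK and 19.5 to 25.7 in CYGB, most of it COL1A1 (mean 19.4), and the leukocyte list to 20.5 to 22.9 in MOCK and 11.2 to 26.9 in CYGB, most of it CD68 (mean 20.6).

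HCT116 cells expressed 6 of the 7 factors and had almost no ATOH1. SOX9 was the most abundant at 110.1 ± 9.37 TPM (SD, n = 6 libraries), followed by KLF4, KLF5 and HES1, with CDX2 and HNF4A more than 10 times below SOX9. By level, SOX9 ranked 1410 among all genes of the table, KLF4 2706, KLF5 3002, HES1 5334, CDX2 9917, HNF4A 10046 and ATOH1 24995, and 16219 genes reached a level of at least 1. None of the 6 expressed factors differed between CYGB and MOCK cells beyond the spread of the replicates.

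**Figure D1:**
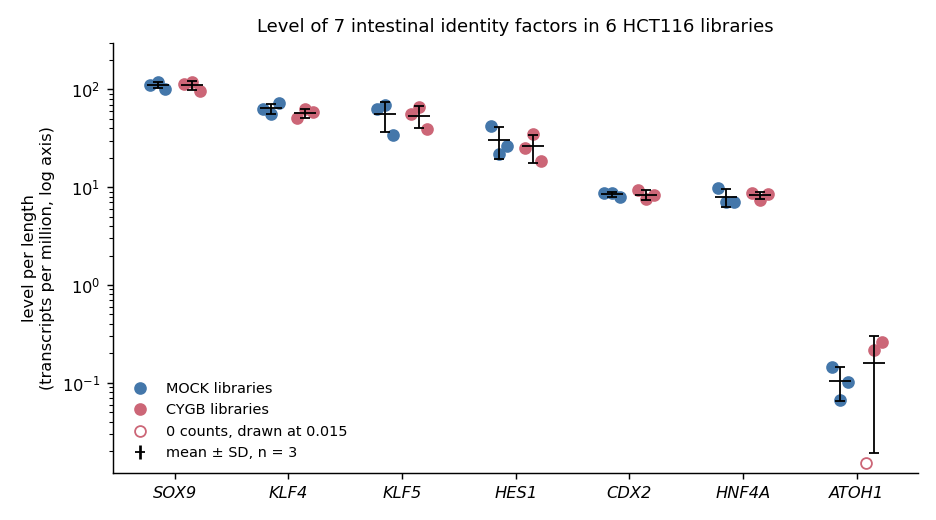
Level per length (TPM, log axis) of the 7 factors in each of 3 MOCK (blue) and 3 CYGB (red) libraries, with the mean and SD of each group in black and the library at 0 counts drawn as an open point at the bottom of the axis. The groups overlapped for each gene, and levels ran from 110.1 for SOX9 to 0.132 for ATOH1 over the 6 libraries.

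SOX9 (ENSG00000125398, chr17:72121020-72126420 of GRCh38, plus strand) is an HMG-box factor that WNT signalling induces at the crypt base. Its counts were 10840, 12639 and 10550 in MOCK replicates 1 to 3 and 11424, 11831 and 10343 in CYGB replicates 1 to 3, the order used throughout. The CYGB values lay around the MOCK values, with the lowest of all 6 in CYGB 3. In counts per 1000000 counts on genes (CPM), SOX9 was at 225 ± 17.6 in MOCK and 219 ± 19.1 in CYGB (SD, n = 3). The log2 fold change was -0.04 with a standard error of 0.10 (95% interval -0.28 to 0.20, adjusted p = 0.988 by the quasi-likelihood test of edgeR, with Benjamini-Hochberg adjustment over all genes). SOX9-AS1, a gene on the opposite strand, had 86 to 110 counts in every library. Whether reads were counted by strand is not given in the sources used here, so a small part of either value may belong to the other gene.

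KLF4 (ENSG00000136826, chr9:107484852-107490482, minus strand) is a zinc finger factor of differentiated epithelium that is also needed by goblet cells. KLF4 counts were 3855, 4253 and 5173 in MOCK and 3503, 4316 and 4348 in CYGB. MOCK 3 was the highest library and CYGB 1 the lowest, and the other 4 lay close together, between 80.5 and 84.9 CPM. The log2 fold change of KLF4 was -0.15 with a standard error of 0.13 (95% interval -0.47 to 0.17, adjusted p = 0.963).

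KLF5 (ENSG00000102554, chr13:73054976-73077542, plus strand) belongs to the same family and favours proliferation of crypt cells. Its counts were 5551, 6624 and 3079 in MOCK and 5049, 5813 and 3759 in CYGB. MOCK 3 and CYGB 3 were the 2 lowest libraries, and the highest CPM was 2.10 times the lowest. KLF5 was at 101 ± 35.8 CPM in MOCK and 95.3 ± 21.8 CPM in CYGB (SD, n = 3), a log2 fold change of -0.08 with a standard error of 0.32 (95% interval -0.85 to 0.69, adjusted p = 0.993). The spread within a group was thus several times the difference between the groups.

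Because KLF4 and KLF5 mark different zones of the epithelium, their balance was computed in each library. The ratio of the KLF5 to the KLF4 level was 1.00, 1.22 and 0.478 in MOCK and 1.11, 1.05 and 0.671 in CYGB. It was lowest in MOCK 3 and CYGB 3 and about 1 or slightly above in the other libraries of both groups.

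HES1 (ENSG00000114315, chr3:194136145-194138732, plus strand), the Notch-induced repressor whose RBPJ cores are shown above, had the largest spread of the 6 factors tested. Its counts were 1608, 909 and 1074 in MOCK and 991, 1361 and 770 in CYGB. MOCK 1 was highest and CYGB 3 lowest, and the remaining values alternated between the groups. HES1 was at 24.0 ± 8.86 CPM in MOCK and 20.4 ± 6.09 CPM in CYGB (SD, n = 3), with a log2 fold change of -0.24 and a standard error of 0.33. Its 95% interval, -1.04 to 0.56, reached just past a 2-fold fall, which was therefore not excluded for HES1 (adjusted p = 0.969 by edgeR).

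CDX2 (ENSG00000165556, chr13:27962137-27971139, minus strand), the homeobox factor of intestinal fate, was present in every library with 887, 971 and 841 counts in MOCK and 977, 756 and 915 in CYGB. Both the highest and the lowest library belonged to CYGB. CDX2 was at 17.8 ± 1.31 CPM in MOCK and 17.2 ± 2.24 CPM in CYGB (SD, n = 3), with a log2 fold change of -0.05 and a standard error of 0.15 (95% interval -0.41 to 0.31, adjusted p = 0.990 by edgeR).

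HNF4A (ENSG00000101076, chr20:44355700-44434596, plus strand), the nuclear receptor of enterocyte genes, had 380, 291 and 292 counts in MOCK and 343, 310 and 389 in CYGB. The 3 CYGB libraries lay inside the range of the MOCK libraries once scaled to library size. HNF4A was at 6.41 ± 1.42 CPM in MOCK and 6.77 ± 0.653 CPM in CYGB (SD, n = 3), and its log2 fold change of 0.08 with a standard error of 0.21 (95% interval -0.42 to 0.58, adjusted p = 0.988 by edgeR) was the only positive value among the 6. The antisense genes HNF4A-AS1 and AL117382.2 within its locus had 0 to 3 counts per library.

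ATOH1 (ENSG00000172238, chr4:93828753-93830964, plus strand), the activator of secretory fate, was close to absent. It had 8, 4 and 6 counts in MOCK and 0, 12 and 16 in CYGB. If each count is a single read pair, a count of 0 allows up to 3 counts (counting error only). Low counts were often multiples of 4, as for SOX2 with 12, 12 and 4 in MOCK and 8, 4 and 16 in CYGB. A count may therefore not be a single read pair, and ATOH1 may rest on fewer read pairs than counts, which was not tested. CYGB held both the empty library and the 2 highest ones. ATOH1 did not pass the filter on low counts and was compared alone, with a two-sided exact permutation p = 0.6 where 3 against 3 libraries cannot go below 0.1. In RNA of a whole culture, a few cells with ATOH1 and a low level in all cells cannot be told apart.

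Neighbours in the order of levels were compared within libraries. SOX9 was above KLF4 in 6 of 6 libraries with a ratio of means of 1.82 and no overlap of their ranges. KLF4 was above KLF5 in 3 of 6 libraries, so these neighbours did not differ beyond their spread. KLF5 was above HES1 in 6 of 6 libraries by a ratio of 1.95, although the lowest KLF5 level fell within the HES1 range. HES1 was above CDX2 in 6 of 6 libraries by a ratio of 3.33. CDX2 and HNF4A, at 8.45 ± 0.704 and 8.09 ± 1.13 TPM (SD, n = 6), could not be ordered: CDX2 was higher in 4 of 6 libraries, and with the length of the most abundant transcript in place of all transcripts HNF4A came first at 9.31 against 8.99. HNF4A was above ATOH1 in 6 of 6 libraries by a ratio of 61.2.

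Across the comparison of CYGB with MOCK, 0 of the 6 factors tested passed the threshold of the methods, which asks for a ratio of at least 2 or at most 0.5 at an unadjusted p of 0.01 or less and which 0.565% of the 19987 genes tested passed. By edgeR, 0 of 6 reached an adjusted p under 0.05, against 0.055% of all genes, and 0 of 6 had an unadjusted p under 0.05, against 4.54%. DESeq2 also gave 0 of 6 at both rules. The 3 CYGB values lay wholly above or below the 3 MOCK values for 0 of the 6, against 11% of all genes. Their log2 fold changes ran from -0.24 (HES1) to 0.08 (HNF4A) with a median of -0.07, and the median of all genes tested was -0.01. For SOX9, KLF4, KLF5, CDX2 and HNF4A the 95% intervals lay inside a 2-fold change in either direction, which bounds the difference without showing that the groups were alike.

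**Figure D2:**
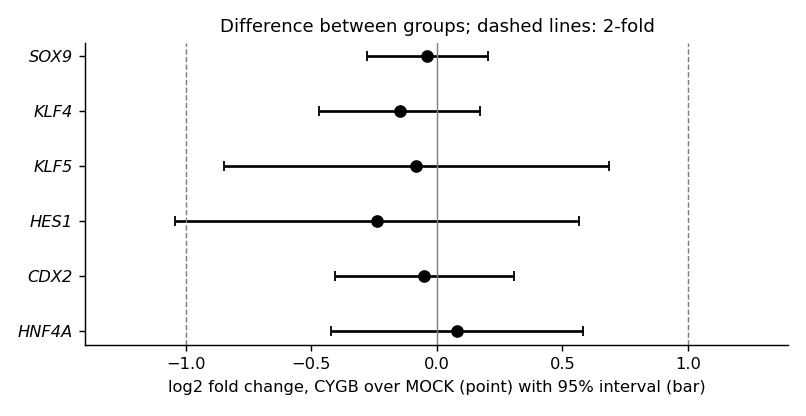
Log2 fold change of CYGB over MOCK for the 6 factors tested (points, edgeR) with 95% intervals (bars), dashed lines marking a 2-fold change. Each interval includes 0, and that of HES1, from -1.04 to 0.56, is the only one that crosses a 2-fold line.

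The factors differed in how evenly they were expressed. The coefficient of variation of CPM over the 6 libraries was 7.56% for SOX9, 9.56% for CDX2 and 12.1% for KLF4, below the median of 13.1% over the 11466 genes at 5 CPM or more. HNF4A was at 15.3%, KLF5 at 27.2% and HES1 at 32.0%, with the high and low libraries of the last 2 found in both groups. For each factor at 10 CPM or more, the genes with the most similar profile over the 6 libraries were listed by Pearson's r of log2 CPM. These were TLCD1 (0.994) and CIP2A (0.993) for KLF5, AC138956.2 (0.995) and SLMAP (0.987) for HES1, RNF130 (0.992) and S1PR5 (0.985) for SOX9, RBM33 (0.998) and AC009720.1 (0.993) for KLF4, and ZNF620 (0.997) and VDAC1P1 (0.992) for CDX2. With only 6 points that share depth and library, an r above 0.95 was reached by 21 to 70 genes per factor, so these names are a description of the profiles alone.

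Of the 23 transcripts of the factors, 13 passed the filter on low counts and 0 were past the threshold of the methods, against 1.02% of the 66609 transcripts tested. By edgeR, 0 of the 13 had an adjusted p under 0.05, against 0.015% of all transcripts. SOX9-202, CDX2-201, KLF5-201 and HES1-201 each held at least 93.8% of their gene's counts in every library. How reads were divided among transcripts of a gene is not given in the sources used here, and counts of transcripts that share most of their sequence are uncertain.

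KLF4 had the most uneven split. The protein coding KLF4-201 (ENST00000374672) had 761, 3785 and 4453 counts in MOCK and 2973, 3683 and 3491 in CYGB, whereas KLF4-205 (ENST00000497048), annotated as a retained intron, had 2790, 226 and 281 in MOCK and 224, 358 and 261 in CYGB. MOCK 1 thus stood apart from the other 5 libraries, with KLF4-205 at 72.4% of its KLF4 counts against 5.31 to 8.29% elsewhere, while its KLF4 total did not stand apart. Of the 150-base windows of KLF4-201, 0% are found in no other KLF4 transcript, and of those of KLF4-205 8.02%. The log2 fold changes, -2.02 with a standard error of 1.09 for KLF4-205 and 0.19 with 0.60 for KLF4-201, turned to 0.17 (SE 0.37) and -0.26 (SE 0.18) without MOCK 1.

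HNF4A counts came mostly from the upstream promoter. Its 4 transcripts, which start between positions 44355700 and 44355801, held 81.8%, 86.3% and 79.8% of HNF4A counts in MOCK and 81.9%, 67.4% and 80.2% in CYGB. The other 4, with starts between 44401270 and 44401301 just after the downstream promoter sequence shown above, held the rest. CYGB 2 was the lowest library. Its 95% Wilson interval was 62.0 to 72.4%, and the lowest of the other 5 intervals began at 74.8% (counting error only). These intervals take each count as an independent read pair. Low counts were often multiples of 4, so the intervals may be too narrow to set CYGB 2 apart. The share was 82.6 ± 3.30% in MOCK and 76.5 ± 7.93% in CYGB (SD, n = 3), a difference of -6.11 percentage points with a two-sided exact permutation p = 0.5, and without CYGB 2 the difference was -1.57 points. Only 8.45% of the 150-base windows of the upstream transcripts and 34.8% of those of the downstream ones are found in no transcript of the other promoter. In CYGB 2, 83 of the 101 downstream counts were on HNF4A-204 (ENST00000415691). That transcript had 67, 0 and 45 counts in MOCK and 0 in CYGB 1 and CYGB 3. Of its windows, 0% are found in no other HNF4A transcript, so the low share of CYGB 2 may not reflect promoter use.

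**Figure D3:**
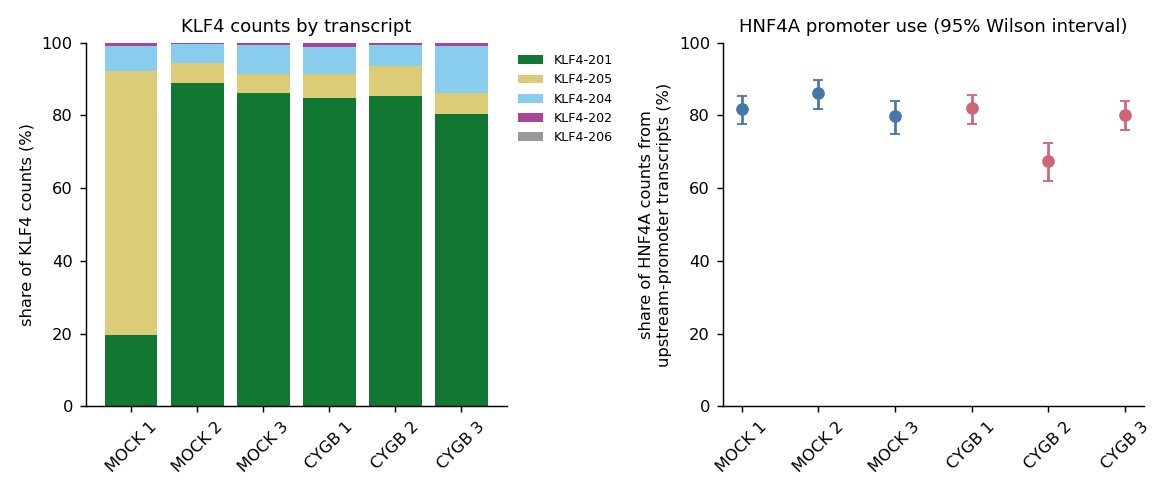
Left, share of KLF4 counts (percent) on each of its 5 transcripts in each library. Right, share of HNF4A counts (percent) from the 4 transcripts of the upstream promoter in MOCK (blue) and CYGB (red) libraries. Bars are 95% Wilson intervals that take each count as an independent read pair and may be too narrow. KLF4-205 takes 72.4% of the counts in MOCK 1 and at most 8.29% elsewhere, and the HNF4A share is lowest in CYGB 2 at 67.4%.

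Genes of absorptive enterocytes were mostly at or near 0, while CDX2 and HNF4A were present. Whether these genes depend on CDX2 or HNF4A was not tested. Of 30 absorptive genes analysed, 5 reached a mean level of 1 and 7 had 0 counts in every library. ALPI, the alkaline phosphatase of the brush border, GUCY2C, a guanylin receptor, and APOA4 were among those at 0, and FABP1, the fatty acid binding protein of enterocytes, had 5 counts in MOCK 2 and 0 in the other libraries. The best expressed were the carbonic anhydrase CA2 (72.1 ± 5.23 TPM, SD, n = 6) and USH1C (20.3 ± 1.37), which anchors microvillar cadherins. Of the 12 absorptive genes tested, 0 passed the threshold of the methods and 1 had an unadjusted p under 0.05, the actin bundler VIL1, with 22, 24 and 12 counts in MOCK and 34, 40 and 36 in CYGB and a log2 fold change of 0.89 (SE 0.35, adjusted p = 0.963 by edgeR). VIL1 was at 0.164 TPM, and the next gene by p, the bundler PLS1, had a log2 fold change of 0.28 (SE 0.23). GUCA2B and CEACAM7 were not analysed here.

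Secretory genes, the programme that ATOH1 switches on, were low as well. Of 24 analysed, 4 reached a level of 1, 5 had 0 counts in every library, and 9 passed the filter on low counts. The goblet cell mucin MUC2 had 0, 8 and 10 counts in MOCK and 0, 8 and 0 in CYGB. GFI1, a repressor downstream of ATOH1, was the highest at 3.18 ± 1.71 TPM (SD, n = 6), followed by FCGBP, a mucus protein, at 2.82 ± 0.344. GFI1 had 291, 406 and 165 counts in MOCK and 102, 241 and 90 in CYGB, which overlapped, with a log2 fold change of -1.01 and a standard error of 0.50. SPDEF, a goblet cell factor, had 25, 30 and 11 counts in MOCK and 8, 2 and 16 in CYGB (log2 fold change -1.37, SE 0.75). CHGA (-0.84, SE 0.58), CHGB (-1.21, SE 1.39) and PYY (-0.67, SE 0.54) were also lower, with 59 counts or fewer in each library. Others of the list had higher values in CYGB. POU2F3, the tuft cell factor, had 11, 25 and 18 counts in MOCK and 27, 33 and 26 in CYGB (log2 fold change 0.66, SE 0.36). Its groups did not overlap, as for 11% of all genes. The log2 fold changes were 0.44 (SE 0.25) for the tuft cell marker DCLK1, 0.80 (SE 0.62) for the lysozyme gene LYZ and 0.23 (SE 0.16) for FCGBP. By edgeR, 0 of the 9 passed the threshold of the methods and 0 had an unadjusted p under 0.05. The median log2 fold change of the 9 was -0.67 against -0.01 for all genes, with 5 lower and 4 higher in CYGB.

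**Figure D4:**
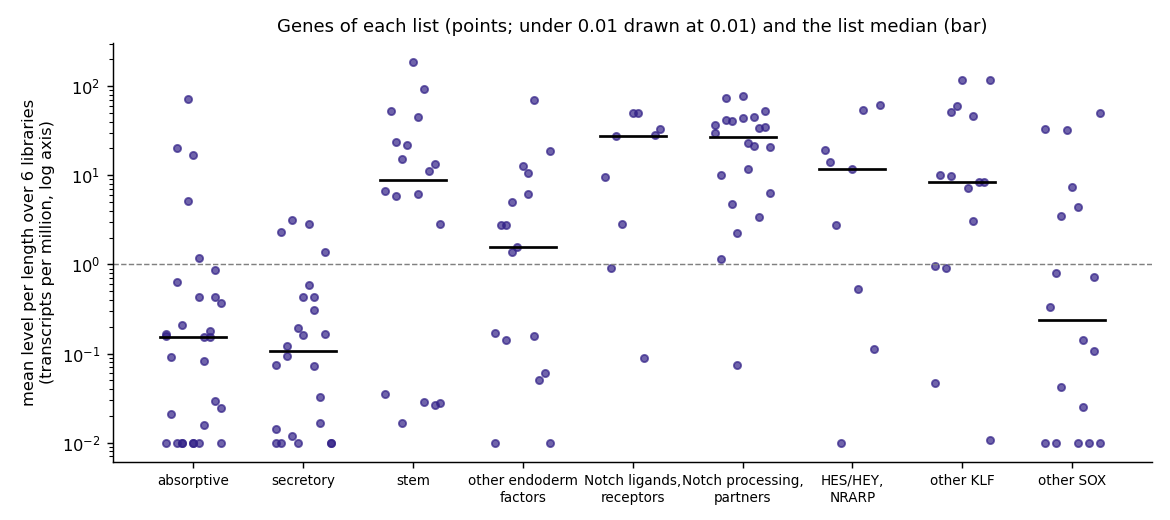
Mean level per length over the 6 libraries (TPM, log axis) of each gene (point) of 9 lists, with the list median as a bar and a dashed line at 1. Absorptive and secretory genes lie mostly below the line, with 5 of 30 and 4 of 24 at or above it, whereas 21 of 22 Notch processing and partner genes and 13 of 18 stem cell genes reach it.

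Most genes listed for the Notch pathway, which induces HES1, were expressed. Of 9 Notch ligands and receptors, 7 reached a level of 1, led by the receptor NOTCH3 at 50.5 ± 4.58 and the ligand JAG2 at 50.2 ± 30.1 TPM (SD, n = 6). JAG2 was the most variable of them, with 2518, 2245 and 7626 counts in MOCK and 8306, 11216 and 2696 in CYGB, so that high and low libraries occurred in both groups. NOTCH1 had 6155, 6420 and 4214 counts in MOCK and 6639, 6963 and 7878 in CYGB, a log2 fold change of 0.33 (SE 0.18, adjusted p = 0.963 by edgeR), and the ligand DLL4 had one of 0.71 (SE 0.42). Of 22 genes of Notch processing, its regulators and its nuclear partners, 21 reached a level of 1. Among them were RBPJ at 77.0 ± 10.4 and APH1A, a subunit of gamma-secretase, at 74.4 ± 4.08. Regulators such as NUMB, NUMBL, ITCH, MIB1 and the DTX genes are included, so these levels do not show how active the pathway was. The smallest p-values in that list belonged to RFNG, a fringe glycosyltransferase (log2 fold change -0.35, SE 0.17), and POFUT1, which fucosylates Notch receptors (0.15, SE 0.08). In both lists together with the relatives of HES1, 0 genes passed the threshold of the methods and 0 had an unadjusted p under 0.05 by edgeR.

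Among the 9 relatives and feedback genes of HES1 analysed, 6 reached a level of 1, and HES6 (61.4 ± 18.2) and HES4 (54.4 ± 23.6 TPM, SD, n = 6) were above HES1 itself (28.1 ± 8.80). HES4 counts were 2311, 1775 and 882 in MOCK and 1072, 1428 and 962 in CYGB. NRARP, a feedback inhibitor that Notch induces, had 1020, 902 and 415 counts in MOCK and 599, 502 and 445 in CYGB, with a log2 fold change of -0.63 and a standard error of 0.37. Both genes were highest in MOCK 1, as HES1 was, and overlapped between the groups. HES7 was also highest there, with 49 counts. Other genes of the list differed: HES6 was highest in CYGB 2 (2497 counts), HEYL in CYGB 3 (1315), and HEY1 was lowest in MOCK 1 (95). HEYL had a log2 fold change of 0.21 (SE 0.12). HES3 was not analysed here.

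Stem and progenitor genes, the setting in which SOX9 is known, divided into those with and without a level. LGR5, ASCL2, OLFM4 and SMOC2, which mark crypt base stem cells, each had a mean level below 0.04 TPM. CD44 (188 ± 37.3) and the polycomb protein BMI1 (93.4 ± 8.89, SD, n = 6) were the most abundant. Of the 13 stem cell genes tested, 0 passed the threshold of the methods and 0 had an unadjusted p under 0.05 by edgeR. The closest were RNF43, a ubiquitin ligase that restrains WNT receptors (log2 fold change 0.14, SE 0.09), and the RNA-binding protein MSI1 (0.43, SE 0.26).

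Other factors of gut and foregut identity were compared in the same way. Of 17 analysed, 10 reached a level of 1, among them the epithelial ETS factor ELF3 at 69.8 ± 5.80 TPM (SD, n = 6). Of 12 tested, 0 passed the threshold of the methods. EHF, an ETS factor related to ELF3, was the 1 gene with an unadjusted p under 0.05, with 242, 28 and 16 counts in MOCK and 13, 11 and 5 in CYGB and a log2 fold change of -3.37 (SE 1.21, adjusted p = 0.963 by edgeR). Its MOCK 1 value was more than 8 times the next highest, and without MOCK 1 the log2 fold change of EHF was -1.14 (SE 0.60). PDX1, a duodenal and pancreatic factor, had 226, 217 and 176 counts in MOCK and 156, 158 and 155 in CYGB (log2 fold change -0.43, SE 0.18, adjusted p = 0.963 by edgeR). NR5A2, a nuclear receptor, had 167, 173 and 202 counts in MOCK and 245, 215 and 208 in CYGB (log2 fold change 0.28, SE 0.17). The groups did not overlap for 3 of the 12 genes tested, EHF and PDX1 being lower and NR5A2 higher in CYGB, against 11% of all genes. Across the lists above, the groups also did not overlap for VIL1, POU2F3, NOTCH1, PSENEN, MAML2 and POFUT1, higher in CYGB, and for LRIG1, lower in CYGB. Those lists held 12 absorptive, 9 secretory, 8 Notch ligand and receptor, 21 Notch processing, 7 HES1-related and 13 stem cell genes tested. The share over all genes was 11%, and the lists were not tested against it. GATA5 and CDX4 were not analysed here.

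**Figure D5:**
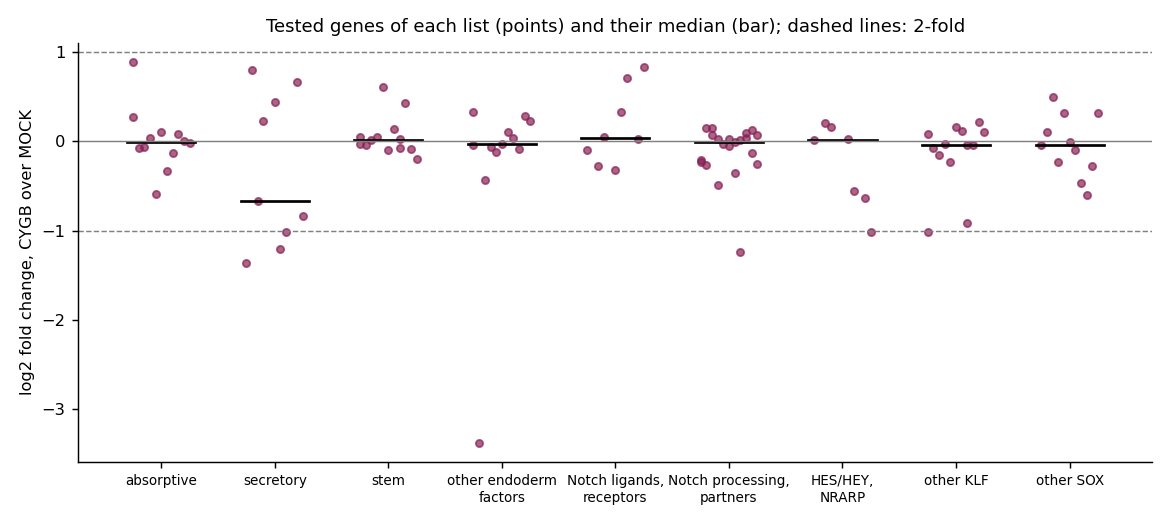
Log2 fold change of CYGB over MOCK (edgeR) of each gene tested (point) in the 9 lists, with the list median as a bar and dashed lines at a 2-fold change. Medians lie between -0.04 and 0.04 except for secretory genes at -0.67, and EHF is the lowest point at -3.37.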

How the data were processed

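RNA of 3 MOCK and 3 CYGB libraries of HCT116 cells had been sequenced as paired-end 150-base reads. The deposited table holds raw counts for each transcript as the authors made them, not normalized. The submitters' processing notes name HISAT2, DESeq2 and hg19, but 99.576% of the transcripts found in GENCODE 29 have its GRCh38 position, so coordinates are given on GRCh38. How counts were assigned to transcripts is not given in the sources used here.

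Counts were summed per gene, and the 21225 of 172678 transcripts without a gene, which held 18.6 to 19.5% of the counts, were left out. Library totals are in the report. edgeR 4.0.16 in R 4.3.3 (filterByExpr with a minimum count of 10, TMM, glmQLFit, glmQLFTest, Benjamini-Hochberg adjustment) compared CYGB with MOCK over 19987 genes and 66609 transcripts. Steps were tested on simulated counts. Levels per length are the transcript counts divided by GENCODE 29 transcript lengths and scaled to a sum of 1000000. ATOH1 and the HNF4A promoter share were compared by exact permutation tests. For profile likeness, 0.5 was added before the log2. P-values measure the spread between these libraries, which the labels call biological replicates. Figures were drawn with matplotlib 3.10.9 in Python 3.11.15.

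The members and the lists (absorptive, secretory, stem cell, endoderm factor, Notch, HES and HEY, KLF, SOX, and marker lists) were chosen with earlier results of these data known. In each list, genes past the threshold of the methods were named, otherwise the 2 with the smallest p, and the 2 with the highest level. Other genes named from the lists were chosen after their values were seen. Some genes of the lists are not reported here. Alternatives were DESeq2 1.42.0, its size factors, the replicate number as a block, no filter on low counts, a filter at a mean of 50 counts, each library left out, the most abundant transcript per gene, and inclusion of transcripts without a gene.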

Additional observations from a re-analysis of the deposited data

How the results depend on the processing

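Of the 6 factors, 0 passed the threshold of the methods or an adjusted p under 0.05 in any of the alternatives, with a smallest adjusted p of 0.838 by edgeR or DESeq2 and a median log2 fold change between -0.148 and 0.013. KLF4 was at 0.185 with its most abundant transcript in place of the gene. Directions were not stable when 1 library was left out, with ranges of -0.144 to 0.04 for CDX2, -0.492 to 0.0951 for HES1, -0.0194 to 0.274 for HNF4A, -0.35 to 0.104 for KLF5 and -0.1 to 0.0338 for SOX9, whereas KLF4 ranged from -0.205 to -0.0368.

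Of the pathway lists, 0 genes passed the threshold of the methods. DESeq2 gave 1 (EHF, adjusted p = 0.162), the most abundant transcript of each gene gave 1 (DCLK1, adjusted p = 0.146), and leaving out 1 library gave 0 to 2, namely DLL4 without MOCK 2, and KLF2 and KLF3 without MOCK 3. Transcripts of the factors past that threshold numbered 0 to 2 when 1 library was left out, the 2 being HNF4A-206 (ENST00000457232), which had 0 counts in both remaining CYGB libraries against 58, 35 and 42 in MOCK, and SOX9-201 (ENST00000245479, log2 fold change 4.27) without CYGB 2, neither with an adjusted p under 0.05. The cause was not tested. The HNF4A share difference ranged from -8.82 to -1.57 percentage points when 1 library was left out.

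Over all genes tested, libraries with the same replicate number did not deviate together (correlations 0.0159, 0.00487 and 0.0253). The labels do not state whether the numbers pair the samples, and these correlations cannot settle it. With the replicate block the median log2 fold change of the factors was -0.05 and 0 factors were called. With 3 libraries per group, the intervals were widest for HES1 and KLF5, and ATOH1 was too low for a comparison of fold changes.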

Other observations

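The KLF and SOX families were also read as a whole. Of 15 other KLF genes, 11 reached a mean level per length of 1, and KLF10 (118 ± 13.3) and KLF6 (116 ± 9.07 TPM, SD, n = 6) stood above KLF4 and KLF5. KLF10, a factor that transforming growth factor beta induces, had 7884, 9808 and 9125 counts in MOCK and 10192, 11002 and 10476 in CYGB, without overlap, as was the case for 3 of the 13 KLF genes tested (KLF10 and KLF11 higher, KLF14 lower) against 11% of all genes. Its log2 fold change was 0.22 with a standard error of 0.08, an unadjusted p under 0.05 that did not hold after adjustment over all genes (adjusted p = 0.963 by edgeR). KLF3 had 1280, 1117 and 397 counts in MOCK and 529, 495 and 496 in CYGB, with a log2 fold change of -0.92 and a standard error of 0.44. Of the 13 KLF genes tested, 0 passed the threshold of the methods.

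Of 18 other SOX genes, 6 reached a level of 1 and 4 had 0 counts in every library, among them SOX17, a factor of early endoderm. SOX9 was above each of them, the next being SOX4 (49.6 ± 20.3) and SOX13 (33.2 ± 1.47 TPM, SD, n = 6). SOX4 had 9817, 9469 and 6718 counts in MOCK and 9441, 7759 and 1888 in CYGB, and its low value in CYGB 3 coincided with the lowest EPCAM count, 8347 against 15589 to 17519 in the other libraries. SOX12 had a log2 fold change of -0.27 (SE 0.15) and SOX18 one of -0.60 (SE 0.50). Of the 11 SOX genes tested, 0 passed the threshold of the methods and 0 had an unadjusted p under 0.05 by edgeR.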
